A study of Mus musculus with 8 samples.

Results

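The genes described here make up the secretory and unfolded protein program of plasma cells, the antibody-secreting end of the B lineage. They were chosen as a named list of 41 genes, matched by symbol to the deposited Ensembl gene IDs through the mm9 annotation, and all 41 were found among the 37991 IDs and passed the filter on low counts. RNA came from B-cell-biased lymphoid progenitors, a bone marrow population that still has other lymphoid fates open, sorted by flow cytometry after Kit-positive cells had been enriched. The H2afy_KO group held 4 pools from H2afy-/- mice and the H2afy_WT group 4 pools from H2afy+/+ mice, with no treatment named for either. Mice of both groups were 5 to 12 weeks old, and each pool held RNA of 5000 to 15000 cells from 2 to 3 mice. The histone variant macroH2A1 is the product of H2afy, and the title of the series links its splicing by mutant U2AF1 to B-cell development. The labels give neither the strain nor the way the allele was inactivated, and do not say whether pools share mice.

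A plasma cell makes and secretes antibody at a very high rate, and its endoplasmic reticulum, the compartment where secreted proteins are folded, expands to match. The transcription factors Irf4, Prdm1 (Blimp-1) and Xbp1 drive this state: Prdm1 silences the B-cell program, and Xbp1, activated when the sensor Ire1 splices its mRNA, switches on genes for folding, translocation and disposal of proteins. Xbp1 and the sensor Atf6 form the adaptive branches of the unfolded protein response, while the sensor Perk acts through the factors Atf4 and Ddit3 (Chop), which are tied to amino acid supply and to cell death under lasting stress. Early lymphoid progenitors do not secrete antibody.

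The pools held 21330088 to 29029765 counts assigned to genes, and 13722 genes were tested. Levels are given as CPM, which scales the counts of each pool to the same library size with TMM factors. Of all counts, H2afy_KO 1 to 4 gave 0.401%, 10.1%, 39.4% and 33.7% to immunoglobulin genes, against 3.51%, 1.003%, 19.6% and 13.01% for H2afy_WT 1 to 4. The progenitor markers Kit (246 to 278 CPM in H2afy_KO, 277 to 366 CPM in H2afy_WT), Flt3, Il7r and Dntt were present in all 8 pools. H2afy itself averaged 1659 ± 238 CPM in the H2afy_KO pools, against 2267 ± 288 CPM in the H2afy_WT pools (SD, n = 4 each), with a log2 fold change of -0.45 (SE 0.15, adjusted p = 0.504). As the labels do not say which exons were removed, the count is no check of the genotypes.

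The levels of many of these genes differed widely between pools of the same genotype and followed the immunoglobulin share. The relation was fitted for every gene as a slope, the change in log2 level for each doubling of the immunoglobulin share, with the genotype as a second term. By edgeR's quasi-likelihood test, 18 of the 41 genes rose with the share at an adjusted p below 0.05, and 0 fell. DESeq2 called all 18 of them and 27 in all, against 6.17% of all genes. Over all 13722 genes 1.85% rose and 0.0364% fell in edgeR, and over the 13555 that are not immunoglobulin genes 1.72% rose. The slope was positive for 39 of the 41, with a median of 0.21, against a median of -0.00292 over all genes tested. A positive median was not particular to these genes. Marker genes of granulocytes and monocytes had a median of 0.25, and those of erythroid cells and megakaryocytes one of 0.55. The slopes that passed ran between 0.16 and 1.32. Manf was the last gene inside the threshold (slope 0.20, adjusted p = 0.0449), and Xbp1 the first outside it (slope 0.43, adjusted p = 0.0544). In bulk RNA, fewer antibody-secreting cells and less of these transcripts per cell cannot be told apart. The count depended on H2afy_KO 1: without that pool 6 genes passed and 0.639% of all genes rose, though the median slope was 0.23 and 39 of the 41 were still positive, while 15 to 21 of the 41 passed without any other single pool. In those other fits 171 to 367 of all genes rose, of 13972 to 14170 tested. Leaving out H2afy_KO 3 and 4 together gave 8, with 0.438% of all genes and a median slope of 0.11. A fit that took the replicate number as a block gave 3 (Igj, Eaf2 and Fkbp11), and in it 0.299% of all genes rose and the median slope was 0.15.

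Some markers of plasma, mature B and T cells rose with the share as well. Of the 10 plasma cell markers, 7 of them also members of the program, 6 rose with the share. The summed level of the 10 was 187 to 21124 CPM in H2afy_KO and 616 to 9271 CPM in H2afy_WT. The highest sums were mostly the member Igj, with 18967 CPM in H2afy_KO 3 and 8638 CPM in H2afy_WT 3. Of the 12 mature B cell markers 5 rose, among them Ms4a1 (CD20; slope 0.89) and Cd74 (0.45). The sum of the 12 was 1149.9 to 7765 CPM in H2afy_KO and 1709 to 3855 CPM in H2afy_WT, and Cd74 gave 7342 CPM of the highest. The granulocyte and monocyte list had 0 of 9 tested genes past the threshold (4 at an unadjusted p below 0.05), with sums of 812 to 2766 CPM in H2afy_KO and 1174 to 5636 CPM in H2afy_WT. The plasmacytoid dendritic list had 0 of 10 (6 unadjusted), with sums of 1223 to 2615 CPM in H2afy_KO and 915 to 1579 CPM in H2afy_WT. Of the 12 progenitor markers, 0 had a slope that passed, with or without adjustment. They summed to 6817 to 8438 CPM in H2afy_KO and 9302 to 11630.2 CPM in H2afy_WT, so that for the sum every H2afy_KO pool lay below every H2afy_WT pool. Dntt was the largest part of that sum, and its own values overlapped (3298 to 5067 CPM in H2afy_KO, 5010 to 6235 CPM in H2afy_WT). Not all progenitor markers were lower in H2afy_KO: the log2 fold change was 0.06 for Flt3 and 0.36 for Ly6d, and negative for the others. The B lineage factors that plasma cells turn off, such as Pax5, had 0 of 9 past the threshold (1 unadjusted), with sums of 209.5 to 525 CPM in H2afy_KO and 438 to 767 CPM in H2afy_WT. Of the 5 T cell genes tested 2 rose, Cd4 (slope 0.30) and Cd8a (0.59), and 4 were at an unadjusted p below 0.05. Lck, which made up most of the T cell sum, had a slope of -0.08 (adjusted p = 0.286), and Thy1 one of -0.11 (adjusted p = 0.580). The T cell sums were 243 to 418 CPM in H2afy_KO and 354 to 377 CPM in H2afy_WT, highest in H2afy_KO 1 and lowest in H2afy_KO 3, while Cd3e, Cd3d and Trac were under 1 CPM in every pool. Of the erythroid and megakaryocyte list, 0 of 6 passed (3 unadjusted), with sums of 1.43 to 13.4 CPM in H2afy_KO and 1.93 to 47.2 CPM in H2afy_WT. Median slopes were 0.71 for the plasma cell list, 0.55 for erythroid and megakaryocyte, 0.30 for T cell and 0.25 for granulocyte and monocyte. For the plasmacytoid dendritic, mature B, B lineage and progenitor lists they were 0.11, 0.10, 0.01 and -0.04. Positive slopes numbered 10 of 10, 6 of 6, 3 of 5, 8 of 9, 9 of 10, 8 of 12, 5 of 9 and 4 of 12, in that order. The part of these other cells in the levels of the secretory genes was not tested.

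**Figure D1:**
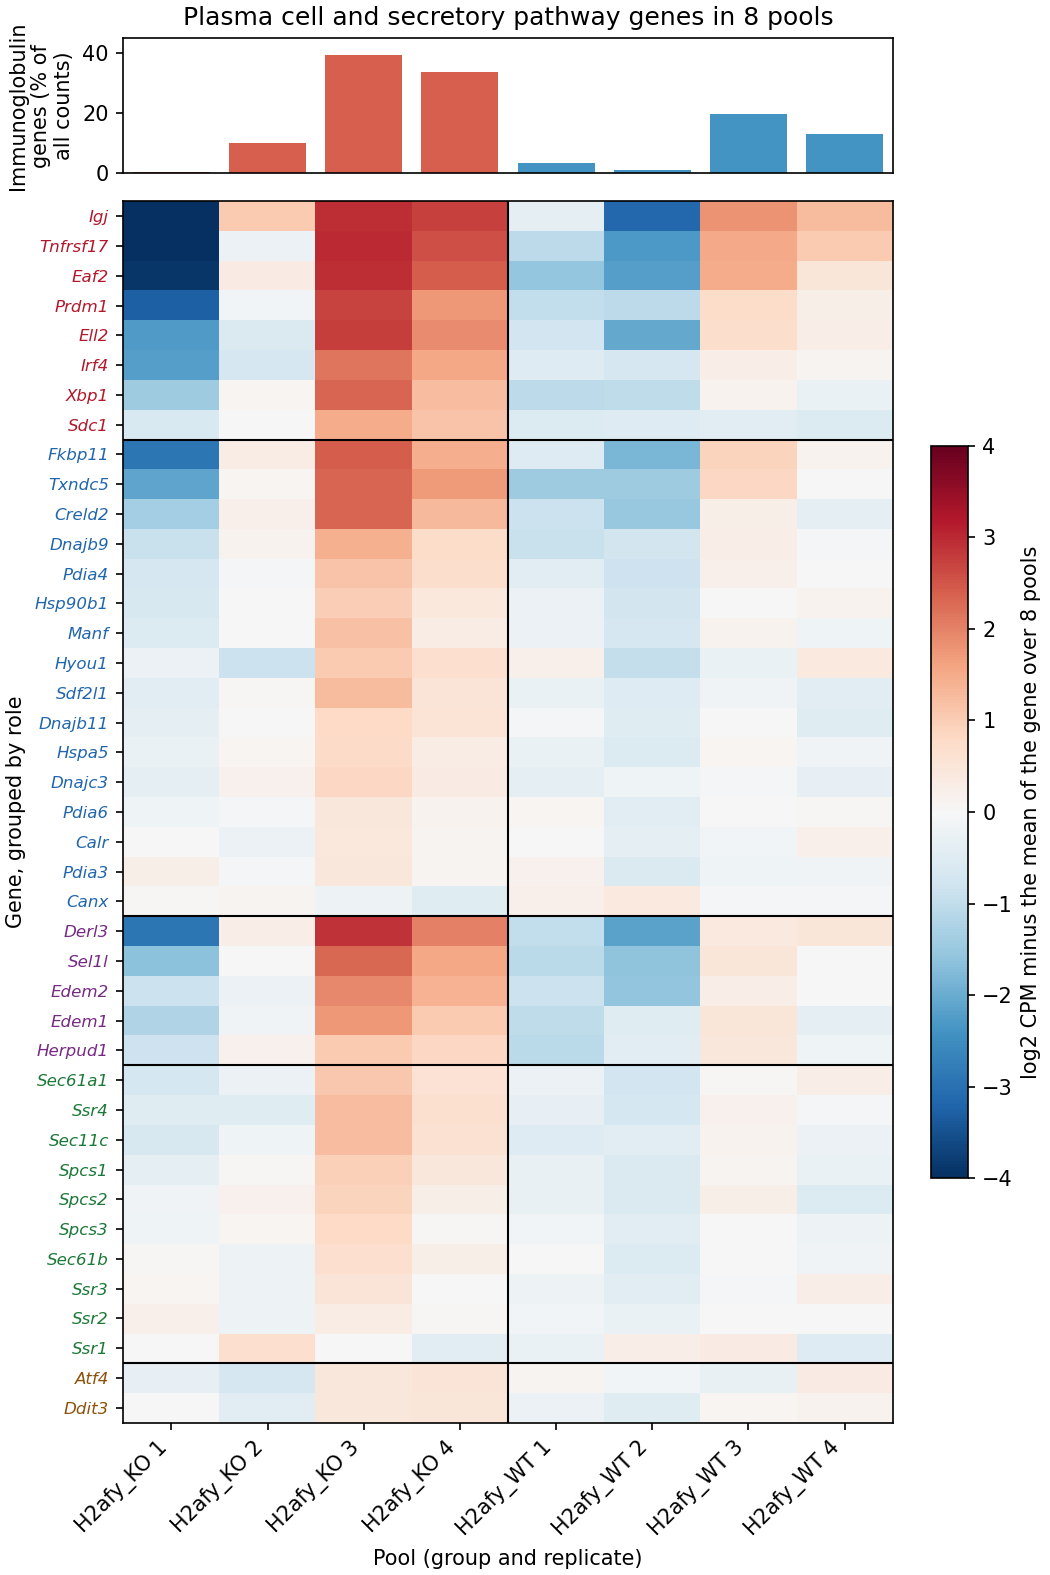
Each row is 1 of the 41 genes and each column 1 pool, with the H2afy_KO pools on the left and the H2afy_WT pools on the right. The bars on top give the immunoglobulin share in percent of counts. The colour gives log2 CPM minus the mean of that gene over the 8 pools, and values beyond the scale take its end colour. H2afy_KO 3 was the highest pool for 37 of the 41 genes.

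The pools ranked alike for most members. H2afy_KO 3, the pool with the highest immunoglobulin share, was the highest of the 8 for 37 genes. The exceptions were Atf4 and Ddit3, highest in H2afy_KO 4, Ssr1, highest in H2afy_KO 2, and Canx, highest in H2afy_WT 2. The lowest pool was H2afy_WT 2 for 20 genes and H2afy_KO 1 for 14, the 2 pools with the smallest shares. Ordered by share within a genotype, 30 genes went up at every step among the H2afy_KO pools, and 15 among the H2afy_WT pools, all 15 of which also did so in H2afy_KO. Over all tested genes 8.95% did so in H2afy_KO, 5.82% in H2afy_WT and 1.65% in both. H2afy_KO 3 was above H2afy_KO 4 for 39 genes, with a median ratio of 1.44 (lowest 0.942, Atf4, highest 2.17, Xbp1), while the ratio of their immunoglobulin shares was 1.17 and the median over all genes 1.01.

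The 8 regulators and surface markers had the steepest slopes, with a median of 0.70, and 5 of them rose. Igj, which encodes the J chain that joins IgM and IgA into polymers, is not counted in the immunoglobulin share. Its level was 32.4, 5055, 18967 and 16323 CPM in H2afy_KO 1 to 4, against 1895, 282, 8638 and 5916 CPM in H2afy_WT 1 to 4. Igj (ENSMUSG00000067149) lies on chromosome 5, 88949537 to 88956916, minus strand of NCBIM37. The lowest and highest pools were 585-fold apart, both in H2afy_KO, and the groups overlapped. Its slope of 1.32 (SE 0.10, adjusted p = 0.000165) means a 2.49-fold level for each doubling of the share, the steepest of the 41.

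Tnfrsf17 (BCMA), the receptor through which plasma cells receive survival signals, had 0.349, 6.74, 63.3 and 47.3 CPM in H2afy_KO 1 to 4, against 3.85, 1.62, 22.6 and 16.5 CPM in H2afy_WT 1 to 4. Tnfrsf17 (ENSMUSG00000022496) lies on chromosome 16, 11313905 to 11320167, plus strand of NCBIM37. It was under 2 CPM in the pools with the lowest share of each genotype, and its value in H2afy_KO 1 rests on 11 counts, the smallest of any member. The slope was 1.06 (SE 0.08, adjusted p = 5.34e-05). Eaf2, a partner of the elongation factor Ell, had 0.825, 15.1, 93.1 and 64.5 CPM in H2afy_KO 1 to 4, against 4.19, 2.64, 33.9 and 16.9 CPM in H2afy_WT 1 to 4. Eaf2 (ENSMUSG00000022838) lies on chromosome 16, 36792970 to 36875089, minus strand of NCBIM37. Its slope was 0.96 (SE 0.07), with the smallest adjusted p of the list, 5.34e-05.

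Ell2, the elongation factor that favours the secreted form of the immunoglobulin heavy chain, had 1.78, 5.65, 58.3 and 31.6 CPM in H2afy_KO 1 to 4, against 5.03, 2.08, 13.8 and 10.2 CPM in H2afy_WT 1 to 4. The slope was 0.69 (SE 0.09, adjusted p = 0.00507), and the pools H2afy_KO 3 and 4 stood above the other 6. Prdm1 was at 1.08, 9.70, 67.3 and 34.3 CPM in H2afy_KO 1 to 4, against 5.27, 5.06, 17.1 and 12.3 CPM in H2afy_WT 1 to 4. Prdm1 (ENSMUSG00000038151) lies on chromosome 10, 44156983 to 44248307, minus strand of NCBIM37. Its slope was 0.71 (SE 0.11, adjusted p = 0.0179). Without H2afy_KO 1 the slopes were 0.78 for Ell2 and 0.55 for Prdm1, and neither passed (adjusted p = 0.0964 and 0.197).

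The other 3 regulators had positive slopes that did not pass. Xbp1 had 35.2, 98.2, 475 and 219 CPM in H2afy_KO 1 to 4, against 45.2, 46.3, 103 and 78.2 CPM in H2afy_WT 1 to 4. Xbp1 (ENSMUSG00000020484) lies on chromosome 11, 5420662 to 5425896, plus strand of NCBIM37. Its highest pool was 13.5-fold above its lowest, and its slope was 0.43 (SE 0.09, adjusted p = 0.0544). This call depended on the setting: over the alternatives tried the adjusted p ran between 2.71e-09 and 0.978, and Xbp1 passed without any one of H2afy_KO 2, H2afy_KO 3 or H2afy_WT 2 (0.00532 to 0.0407), and also under DESeq2 and limma-voom. Irf4 had 9.02, 25.9, 181 and 119 CPM in H2afy_KO 1 to 4, against 28.6, 25.8, 49.6 and 44.5 CPM in H2afy_WT 1 to 4, with a slope of 0.50 (SE 0.12, adjusted p = 0.109). It passed without H2afy_KO 2 (adjusted p = 0.0495). Sdc1 (CD138), the surface proteoglycan by which plasma cells are usually sorted, had 35.3, 53.2, 151 and 118 CPM in H2afy_KO 1 to 4, against 36.8, 37.9, 40.3 and 36.7 CPM in H2afy_WT 1 to 4. Sdc1 (ENSMUSG00000020592) lies on chromosome 12, 8778129 to 8800521, plus strand of NCBIM37. The H2afy_WT pools stayed within 36.7 to 40.3 CPM while their immunoglobulin share ran between 1.003% and 19.6%, and H2afy_KO 2 to 4 were above all of them. The slope of Sdc1 was 0.21 (SE 0.06, adjusted p = 0.161).

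**Figure D2:**
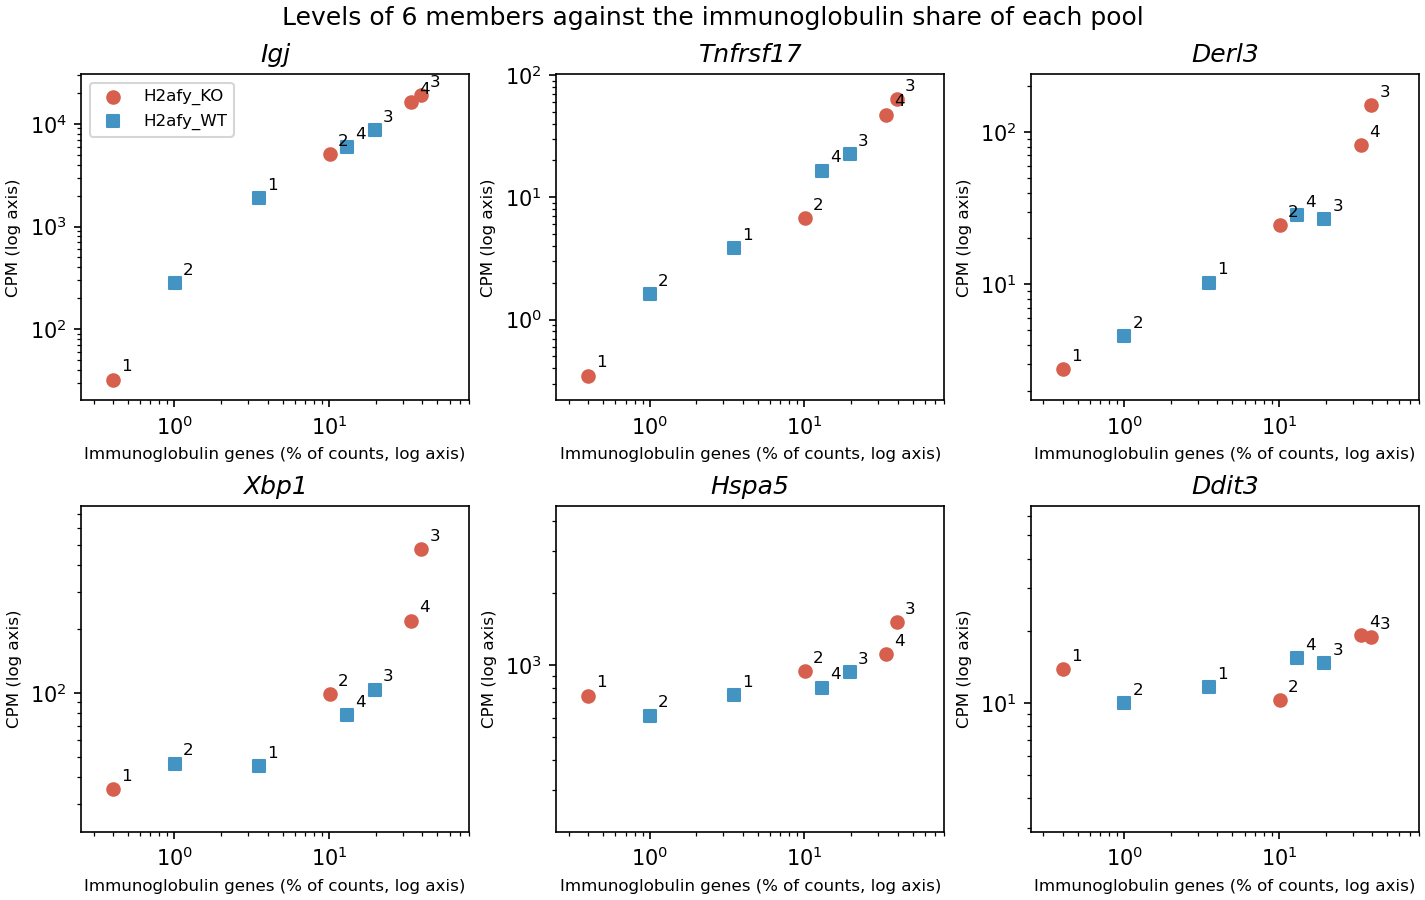
Level in CPM (log axis) against the immunoglobulin share of counts in percent (log axis) for named members, with 1 point per pool, H2afy_KO and H2afy_WT in separate colours. Numbers beside points are replicates, and each panel spans its own range. Igj and Tnfrsf17 climb across the whole range of shares, while Hspa5 varies 2.45-fold and Ddit3 1.92-fold between pools.

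Levels were also set against the immunoglobulin counts themselves, for 7 members. For each 1000 immunoglobulin counts, Tnfrsf17 had 0.102, 0.0721, 0.116 and 0.115 in H2afy_KO 1 to 4, against 0.123, 0.190, 0.112 and 0.132 in H2afy_WT 1 to 4. These values lay within 0.0721 to 0.190 over shares that ran between 0.401% and 39.4%. By the same measure Igj had 9.52, 54.1, 34.6 and 39.6 in H2afy_KO 1 to 4, against 60.3, 32.9, 42.6 and 47.5 in H2afy_WT 1 to 4, with H2afy_KO 1 below the other 7 pools. On this scale Xbp1 had 10.3, 1.05, 0.867 and 0.532 in H2afy_KO 1 to 4, against 1.44, 5.42, 0.509 and 0.628 in H2afy_WT 1 to 4, highest in the 2 pools with the smallest shares. Prdm1, Derl3, Eaf2 and Fkbp11 were also highest in those 2 pools, Prdm1 at 0.317 in H2afy_KO 1 and 0.591 in H2afy_WT 2, against 0.0831 to 0.168 in the other 6.

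Of the 5 genes of endoplasmic reticulum-associated degradation, which returns misfolded proteins to the cytosol for disposal, 4 rose (median slope 0.40). Derl3, a channel component made mainly in secretory cells, had 2.76, 24.4, 149 and 82.2 CPM in H2afy_KO 1 to 4, against 10.2, 4.57, 26.7 and 28.5 CPM in H2afy_WT 1 to 4. Derl3 (ENSMUSG00000009092) lies on chromosome 10, 75356143 to 75358686, plus strand of NCBIM37. The slope was 0.77 (SE 0.07, adjusted p = 0.000195), and Derl3 passed with each pool left out. Sel1l, the scaffold of the Hrd1 ubiquitin ligase, had 45.3, 141, 700.2 and 410.5 CPM in H2afy_KO 1 to 4, against 67.2, 46.3, 198 and 141 CPM in H2afy_WT 1 to 4. Sel1l (ENSMUSG00000020964) lies on chromosome 12, 93044483 to 93087597, minus strand of NCBIM37. Its slope was 0.53 (SE 0.06, adjusted p = 0.00160), and without H2afy_KO 1 the slope was 0.58 with an adjusted p of 0.0556. Edem2, which trims mannose from misfolded glycoproteins, rose with a slope of 0.40 (adjusted p = 0.00950; 0.0569 without H2afy_WT 2), and Herpud1, which helps assemble the ligase, with one of 0.25 (adjusted p = 0.0414; 0.0509 to 0.298 without any one of the 4 H2afy_KO pools, H2afy_WT 3 or H2afy_WT 4). Edem1, a relative of Edem2, had a slope of 0.34 (SE 0.08, adjusted p = 0.0951) and passed without H2afy_WT 2 (adjusted p = 0.0243).

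The 16 chaperones and folding enzymes split into a steep and a flat part (median slope 0.17, 7 past the threshold). Fkbp11, a prolyl isomerase of secretory tissues, had 1.17, 10.8, 47.2 and 23.7 CPM in H2afy_KO 1 to 4, against 6.11, 2.45, 16.3 and 9.58 CPM in H2afy_WT 1 to 4. Fkbp11 (ENSMUSG00000003355) lies on chromosome 15, 98554804 to 98558629, minus strand of NCBIM37. Its slope was 0.70 (SE 0.07, adjusted p = 0.000211), and the highest pool was 40.2-fold above the lowest. Txndc5, a disulfide isomerase, had 29.9, 136, 643 and 417 CPM in H2afy_KO 1 to 4, against 48.1, 48.4, 228 and 126 CPM in H2afy_WT 1 to 4. Txndc5 (ENSMUSG00000038991) lies on chromosome 13, 38591948 to 38620693, minus strand of NCBIM37. Its slope was 0.60 (SE 0.07, adjusted p = 0.00493), and without H2afy_KO 1 it was 0.59 with an adjusted p of 0.118. The same direction with smaller slopes held for Creld2, a stress-induced isomerase (0.47), Dnajb9, a co-chaperone that restrains Ire1 (0.29), Pdia4, a disulfide isomerase (0.24), Hsp90b1, the chaperone Grp94 (0.21), and Manf, a secreted stress protein (0.20). Without H2afy_KO 1 these 5 kept slopes of 0.22 to 0.47 but did not pass (adjusted p = 0.0830 to 0.236). Nor did Dnajb9 without H2afy_KO 3 (0.0617) or Manf without any single H2afy_WT pool (0.0592 to 0.0947).

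Other abundant chaperones varied less between pools. Hspa5 (BiP), the central chaperone that holds the stress sensors inactive, had 747, 945, 1508 and 1112 CPM in H2afy_KO 1 to 4, against 752, 615, 937 and 806 CPM in H2afy_WT 1 to 4. Hspa5 (ENSMUSG00000026864) lies on chromosome 2, 34627490 to 34632051, plus strand of NCBIM37. All 8 pools lay within 2.45-fold of each other, and the slope was 0.12 (SE 0.03, adjusted p = 0.0742; 0.00267 to 0.958 over the alternatives). Hspa5 rose under DESeq2, limma-voom, no filter on low counts and the linear share. Calr (calreticulin), the soluble lectin chaperone, had 576, 475, 759 and 603 CPM in H2afy_KO 1 to 4, against 554, 434, 527 and 648 CPM in H2afy_WT 1 to 4, with a slope of 0.05 (SE 0.04, adjusted p = 0.554). Its membrane-bound partner Canx (calnexin) had 1042, 1084, 880.4 and 726 CPM in H2afy_KO 1 to 4, against 1162, 1309.7, 980.1 and 985 CPM in H2afy_WT 1 to 4. Canx had a slope of -0.07 (SE 0.03, adjusted p = 0.335), and all 4 H2afy_WT pools were above H2afy_KO 3 and 4. Pdia3, the isomerase that works with both, had 747, 601, 867 and 677 CPM in H2afy_KO 1 to 4, against 705, 419, 557 and 571 CPM in H2afy_WT 1 to 4. Its slope was 0.02 (SE 0.04, adjusted p = 0.851). The slopes of the other 5 (Hyou1, Sdf2l1, Dnajb11, Dnajc3 and Pdia6) were 0.08 to 0.17, with adjusted p of 0.136 to 0.401.

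Of the 10 genes for moving new proteins into the endoplasmic reticulum and cutting off their signal peptides, 2 rose, with a median slope of 0.11 for the group. Sec61a1, the pore of the translocon, had 248, 345, 855 and 606 CPM in H2afy_KO 1 to 4, against 348, 239, 420.0 and 495 CPM in H2afy_WT 1 to 4. Its slope was 0.23 (SE 0.04, adjusted p = 0.0168), and it did not pass without H2afy_KO 1 (0.131, with a slope of 0.29) or H2afy_WT 2 (0.0512). Spcs1, a subunit of signal peptidase, had a slope of 0.16 (adjusted p = 0.0414), and it did not pass without any one of H2afy_KO 1, 3 and 4 and H2afy_WT 1, 2 and 3 (0.0656 to 0.233). The 4 genes of the translocon-associated complex differed among themselves. Ssr4 had a slope of 0.21 (adjusted p = 0.0840; 0.00501 without H2afy_KO 2), and Ssr3 had one of 0.06 (adjusted p = 0.516). Ssr1 had 1229, 1945, 1211 and 889 CPM in H2afy_KO 1 to 4, against 1026, 1459, 1553 and 854 CPM in H2afy_WT 1 to 4. Ssr2 had 242, 183, 258 and 216 CPM in H2afy_KO 1 to 4, against 195, 176, 211 and 215 CPM in H2afy_WT 1 to 4. The slopes of Ssr1 and Ssr2 were -0.03 (SE 0.06, adjusted p = 0.891) and 0.01 (SE 0.03, adjusted p = 0.879), with the largest p of the 41. Sec11c, a catalytic subunit of signal peptidase, had a slope of 0.21 (adjusted p = 0.0639; 0.0255 without H2afy_KO 2). Spcs2, Spcs3 and Sec61b had slopes of 0.07 to 0.12.

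Neither factor of the Perk branch passed. Atf4, which turns on amino acid supply genes, had 63.4, 49.6, 108 and 115 CPM in H2afy_KO 1 to 4, against 86.2, 73.4, 64.5 and 101 CPM in H2afy_WT 1 to 4. Ddit3 had 13.8, 10.2, 18.8 and 19.2 CPM in H2afy_KO 1 to 4, against 11.6, 9.97, 14.6 and 15.3 CPM in H2afy_WT 1 to 4. Their slopes were 0.09 (SE 0.05, adjusted p = 0.472) and 0.09 (SE 0.05, adjusted p = 0.430). The highest pools were 2.32 and 1.92 times the lowest, and for both the groups overlapped. Of the 1713 exon bases of Ddit3, 68 are shared with Mars on the opposite strand, and reads in that stretch cannot be separated. Mars had 11203 counts over the 8 pools, against 2802 for Ddit3.

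**Figure D3:**
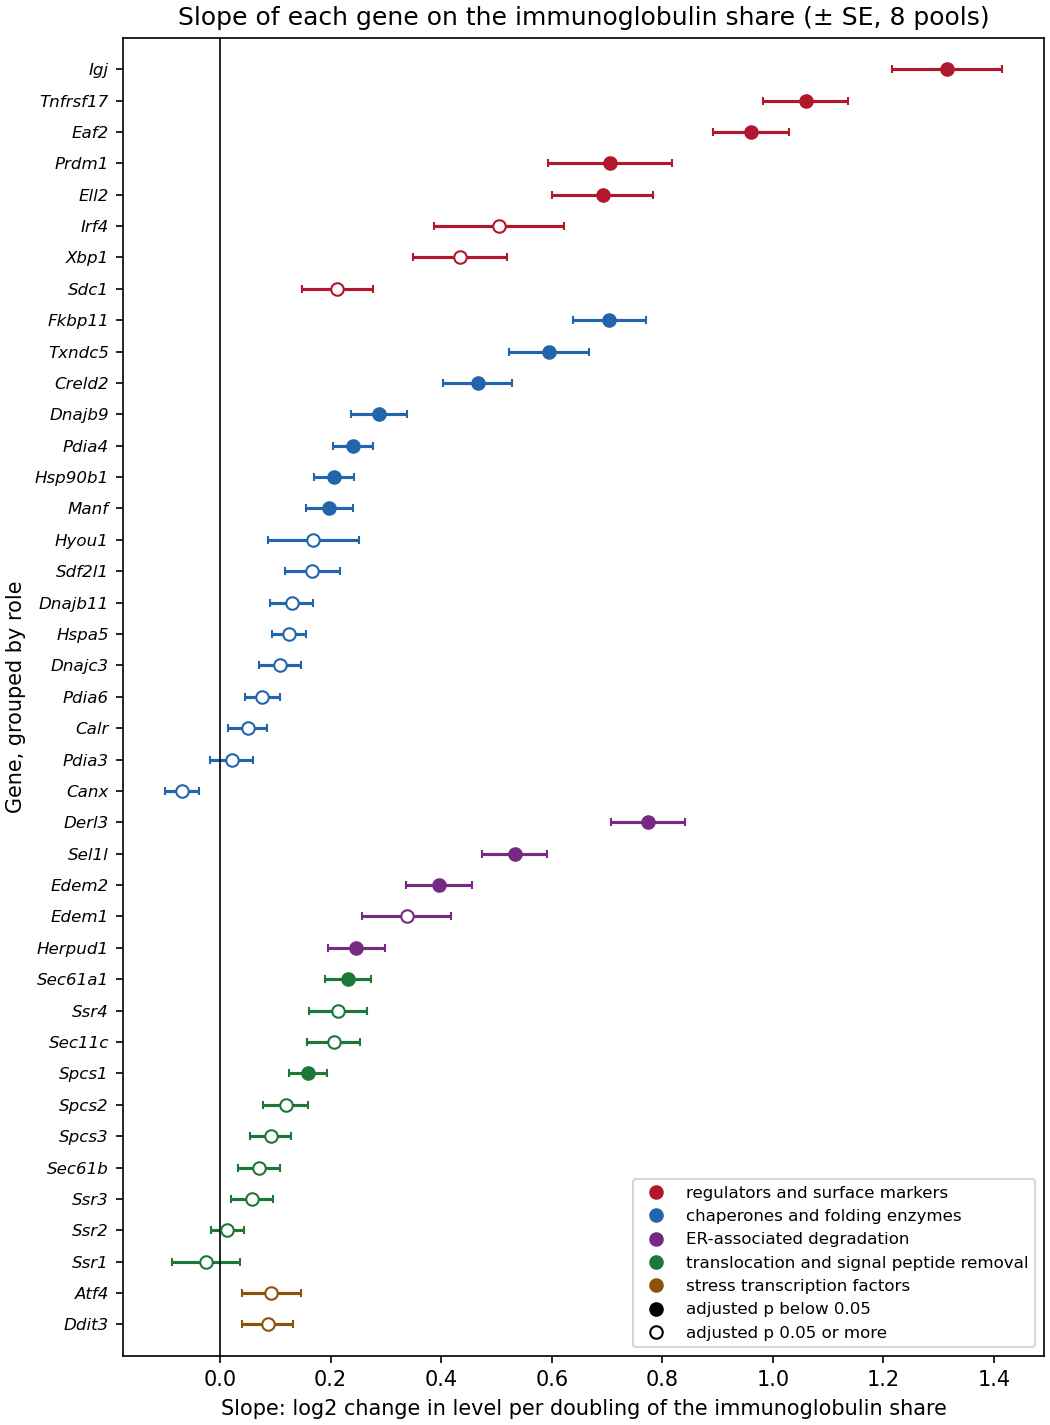
Slope of each of the 41 genes, as the log2 change in level per doubling of the immunoglobulin share, with its SE over 8 pools; filled points passed an adjusted p of 0.05. Genes are grouped by role, and the slopes run between -0.07 (Canx) and 1.32 (Igj).

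Promoter sequence is shown because many of these genes are textbook targets of Atf6 and Xbp1, which act through the endoplasmic reticulum stress element, the letters CCAAT and CCACG with 9 bases between them, and through a shorter second form, ATTGG and CCACG with 1 base between them. Windows of 300 bases, 250 before to 50 after the start site, were available for 35 of the 41 members in RefSeq (build GRCm38.p6), and both strands were searched. The first element was present in 8 of the 35, which is 22.9%, against 37 of 27025 genes with a window, or 0.137%. The second was present in 2 of the 35 (5.71%), against 12 of the 27025 genes (0.0444%). The core TGACGTGG, which Xbp1 can bind, was present in Txndc5 alone of the 35 (0.714% of genes), and TGATGNAAT, a core of Atf4 sites, in 0 of them (1.08% of genes). The matched elements follow, each 5′ to 3′ on the strand that carries it, with the fixed bases in capitals.
Derl3, chr10:75893242-75893260, minus strand: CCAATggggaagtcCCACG
Creld2, chr15:88819520-88819538, minus strand: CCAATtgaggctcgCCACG
Hsp90b1, chr10:86705638-86705656, minus strand: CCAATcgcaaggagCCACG
Hsp90b1, chr10:86705533-86705551, plus strand: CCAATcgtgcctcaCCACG
Herpud1, chr8:94386377-94386387, plus strand: ATTGGgCCACG
Hspa5, chr2:34772025-34772043, plus strand: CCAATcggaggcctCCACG
Dnajb11, chr16:22857852-22857862, plus strand: ATTGGcCCACG
Dnajc3, chr14:118937827-118937845, plus strand: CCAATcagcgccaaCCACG
Pdia6, chr12:17266491-17266509, plus strand: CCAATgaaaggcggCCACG
Canx, chr11:50325800-50325818, minus strand: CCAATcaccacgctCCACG
Calr, chr8:84847075-84847093, plus strand: CCAATgagggtcgaCCACG

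Of these 10 genes, 4 rose with the immunoglobulin share (Derl3, Creld2, Hsp90b1 and Herpud1), and of the 25 members with a window and neither element 12 rose. The median slopes were 0.13 with an element and 0.29 without. Slopes of genes with an element ran between -0.07 (Canx) and 0.77 (Derl3). The 4 windows below are those of the genes with an element that rose, each read 5′ to 3′ on the strand of the gene, with the element in capitals.
Derl3 promoter, chr10:75893148-75893447, plus strand: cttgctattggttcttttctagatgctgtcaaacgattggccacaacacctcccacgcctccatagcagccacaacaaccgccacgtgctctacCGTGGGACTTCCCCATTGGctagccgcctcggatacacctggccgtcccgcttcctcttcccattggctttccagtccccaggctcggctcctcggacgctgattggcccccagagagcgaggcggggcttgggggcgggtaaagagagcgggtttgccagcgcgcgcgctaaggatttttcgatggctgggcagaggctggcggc
Creld2 promoter, chr15:88819396-88819695, plus strand: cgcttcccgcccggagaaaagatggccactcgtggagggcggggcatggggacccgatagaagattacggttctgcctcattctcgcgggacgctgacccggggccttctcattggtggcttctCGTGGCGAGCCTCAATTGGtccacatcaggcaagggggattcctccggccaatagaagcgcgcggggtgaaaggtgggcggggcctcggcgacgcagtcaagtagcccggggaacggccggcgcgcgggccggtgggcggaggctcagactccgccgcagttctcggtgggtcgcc
Hsp90b1 promoter, chr10:86705395-86705694, minus strand: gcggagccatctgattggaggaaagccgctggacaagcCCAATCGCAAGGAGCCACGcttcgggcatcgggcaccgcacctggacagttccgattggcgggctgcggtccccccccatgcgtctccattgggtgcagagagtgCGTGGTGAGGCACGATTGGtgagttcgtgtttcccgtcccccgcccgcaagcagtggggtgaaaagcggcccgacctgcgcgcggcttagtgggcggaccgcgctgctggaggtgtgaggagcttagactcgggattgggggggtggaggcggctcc
Herpud1 promoter, chr8:94386179-94386478, plus strand: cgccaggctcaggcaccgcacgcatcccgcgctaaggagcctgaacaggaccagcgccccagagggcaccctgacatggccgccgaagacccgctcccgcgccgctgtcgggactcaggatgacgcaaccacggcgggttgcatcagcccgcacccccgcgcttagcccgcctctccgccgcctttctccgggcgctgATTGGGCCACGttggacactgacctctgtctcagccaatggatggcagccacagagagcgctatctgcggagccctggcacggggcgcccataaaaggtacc

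In the windows of Derl3 and Creld2 the element lies on the other strand and so appears as its reverse complement, beginning 156 and 126 bases before the start site. Hsp90b1 carries 2 copies, beginning 212 and 107 bases before it, the second reversed. Herpud1 has the short form 52 bases before the start. A match describes letters in the window and is not a measured binding site.

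Between the genotypes, 0 of the 41 genes were higher and 0 lower in H2afy_KO at an adjusted p below 0.05, and 0.0% of the 13722 genes passed in either direction. At an unadjusted p below 0.05 there were 5 members (all higher), against 1040 of all genes (7.58%). DESeq2 called 1 member, Sdc1, and limma-voom 0. The log2 fold change, H2afy_KO over H2afy_WT, was positive for 40 of the 41, with a median of 0.62 against 0.00 over all genes, but adjusted p ran between 0.545 and 0.981. For all 41 genes the values of the groups overlapped; of all genes, 2.18% were higher and 2.35% lower in every H2afy_KO pool than in any H2afy_WT pool. The median was 0.31 without H2afy_KO 3, and -0.05, with 15 of 41 positive, without both H2afy_KO 3 and 4, the 2 pools with the highest immunoglobulin shares. With the share as a covariate it was 0.36, with the replicate block 0.51, and with 1 surrogate variable 0.22, with 33 of 41 positive. At an unadjusted p below 0.05 between the genotypes were also 8 of the 12 progenitor markers and 4 of 9 B lineage factors, all with negative log2 fold changes, and 4 of 10 plasmacytoid dendritic markers, all with positive ones, with 0 past adjustment.

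By role, the median log2 fold changes were 1.45 for regulators and surface markers, 1.35 for degradation, 0.55 for chaperones, 0.43 for translocation and 0.16 for the stress factors. Derl3 had the highest, 1.88 (SE 1.19), and Canx the lowest, -0.25 (SE 0.16). Xbp1 was at 1.60 (SE 0.80, adjusted p = 0.704), with 207 ± 194 CPM in the H2afy_KO pools, against 68.3 ± 27.9 CPM in the H2afy_WT pools (SD, n = 4 each). H2afy_KO 3 and 4 were the highest pools for Xbp1, H2afy_KO 1 was below all 4 H2afy_WT pools, and H2afy_KO 2 was below H2afy_WT 3. Prdm1 and Irf4 were at 1.49 (SE 1.13) and 1.18 (SE 0.90), Igj at 1.27 (SE 1.64) and Tnfrsf17 at 1.40 (SE 1.47), and for each of these 4 the lowest of the 8 pools was H2afy_KO 1. Atf4 was at 0.05 (SE 0.27), Ddit3 at 0.26 (SE 0.24) and Hspa5 at 0.47 (SE 0.21).

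The 4 members with the smallest p between genotypes were Sdc1, Sdf2l1, Dnajc3 and Spcs2. Sdc1 averaged 89.4 ± 54.4 CPM in the H2afy_KO pools, against 37.9 ± 1.68 CPM in the H2afy_WT pools (SD, n = 4 each), with a log2 fold change of 1.24 (SE 0.43, adjusted p = 0.545). It passed under DESeq2 (adjusted p = 0.0493), where 0.343% of genes were higher in H2afy_KO, and over all alternatives its adjusted p ran between 0.0493 and 0.974. Sdf2l1, a partner of the BiP co-chaperones, had 20.6, 29.1, 66.7 and 40.0 CPM in H2afy_KO 1 to 4, against 23.4, 19.6, 25.5 and 20.3 CPM in H2afy_WT 1 to 4. Its log2 fold change was 0.82 (SE 0.31, adjusted p = 0.593). Dnajc3, a BiP co-chaperone also known as an inhibitor of Perk, had 47.1, 69.0, 109 and 75.9 CPM in H2afy_KO 1 to 4, against 46.7, 53.8, 57.7 and 48.9 CPM in H2afy_WT 1 to 4, a log2 fold change of 0.54 (SE 0.22, adjusted p = 0.606). Spcs2, a subunit of signal peptidase, had 343, 424, 701 and 446 CPM in H2afy_KO 1 to 4, against 309.6, 255, 444 and 261 CPM in H2afy_WT 1 to 4, a log2 fold change of 0.59 (SE 0.25, adjusted p = 0.622). In all 4 genes H2afy_KO 3 was the highest pool, while H2afy_KO 1 lay within the range of the H2afy_WT pools or below it.

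**Figure D4:**
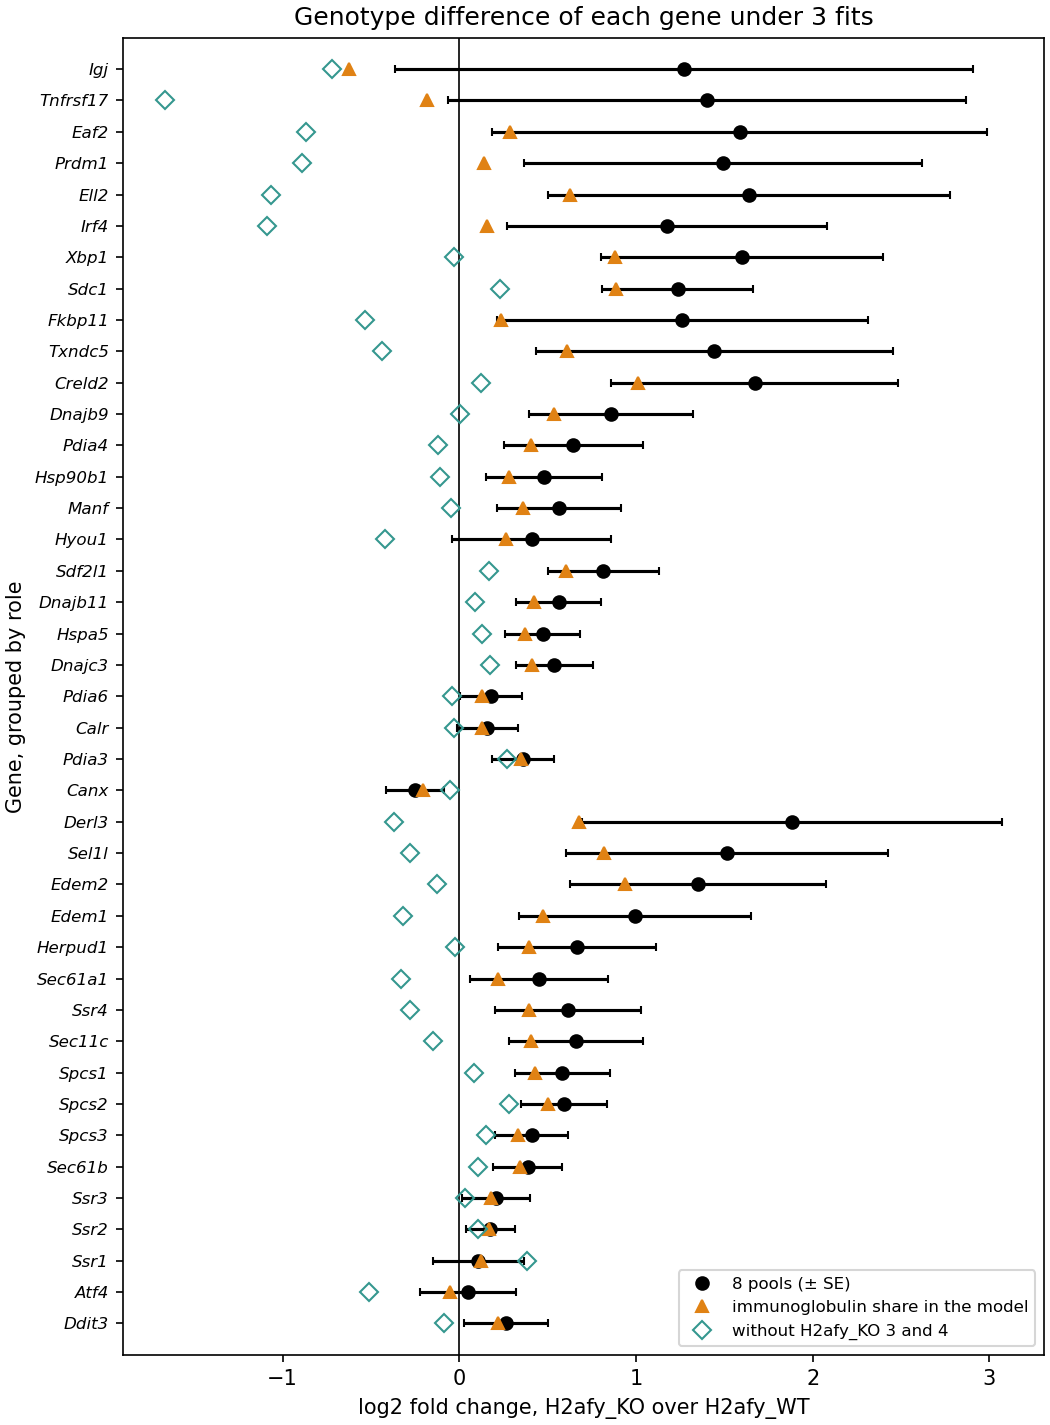
Log2 fold change of each of the 41 genes, H2afy_KO over H2afy_WT (4 pools each), in all pools (circles with SE), with the immunoglobulin share in the model (triangles) and without H2afy_KO 3 and 4 (diamonds). All but Canx are above 0 with all pools, and 15 of 41 are above 0 without those 2.

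The slopes did not differ between the genotypes at an adjusted p below 0.05 for any of the 41 genes in edgeR's test of the difference (3 at an unadjusted p below 0.05; 0 under DESeq2), and over all genes 0.00729% were steeper in H2afy_KO and 0.0% shallower. The median difference was 0.06, with 30 of the 41 steeper in H2afy_KO, against a median of 0.007 over all genes. Without H2afy_KO 1 the median of the members was 0.32, with 38 of the 41 steeper. Without H2afy_KO 3 it was 0.003, with 21 of the 41 steeper. The smallest p were those of Prdm1, steeper in H2afy_KO by 0.44 (SE 0.14), and Sdc1, by 0.28 (SE 0.09), both at an adjusted p of 0.819. Fitted alone, the H2afy_KO pools gave 8 genes that rose (0.725% of all genes) and the H2afy_WT pools 8 (0.437%), 4 of them in both. Slopes were positive in both genotypes for 38 of the 41. Derl3 had a slope of 0.83 in H2afy_KO alone and 0.65 in H2afy_WT alone, and Igj one of 1.41 in H2afy_KO and 1.13 in H2afy_WT. Sel1l, at 0.55 in H2afy_KO and 0.49 in H2afy_WT, passed in H2afy_WT (adjusted p = 0.00618) and not in H2afy_KO (adjusted p = 0.0758), and its difference between the genotypes did not pass.

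Outside the 41 genes, 143 further genes of the same pathways were tested, and 10 rose with the share (6.99%) and 0 fell, with a median slope of 0.06. The share of the 41 members that rose was 43.9%. The list of other plasma cell genes held 5 of the 10. Slamf7, a surface receptor of plasma cells, had 7.30, 47.9, 266 and 179 CPM in H2afy_KO 1 to 4, against 29.6, 15.0, 87.6 and 66.0 CPM in H2afy_WT 1 to 4, with a slope of 0.71 (adjusted p = 0.000165). Il5ra, the interleukin 5 receptor, had 0.413, 8.96, 78.7 and 44.0 CPM in H2afy_KO 1 to 4, against 2.50, 1.66, 21.1 and 12.2 CPM in H2afy_WT 1 to 4, with a slope of 1.03 (adjusted p = 0.000166). Tent5c, a polymerase that lengthens the tails of immunoglobulin mRNA, had 0.476, 31.2, 353 and 196 CPM in H2afy_KO 1 to 4, against 16.2, 2.60, 65.7 and 66.5 CPM in H2afy_WT 1 to 4, and its slope of 1.31 (adjusted p = 0.000224) was near that of Igj.

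Each remaining pathway list held at most 1 gene that rose. Among the 12 sensors and transcription factors it was Creb3l2, a membrane-bound factor of secretory cells (slope 0.50, adjusted p = 0.0179), while Atf6 had a slope of 0.11 (adjusted p = 0.164), Ern1, the gene of Ire1, 0.13 (0.266), and Eif2ak3, that of Perk, 0.04 (0.895). Of 19 Perk and Atf4 targets it was Chac1 (1.36), which was listed at 0 in H2afy_KO 1 and stayed under 8 CPM in all pools. How far the slope of Chac1 depends on that count of 0 was not tested. Of 20 folding genes it was Erp44 (0.18, adjusted p = 0.0202), of 18 degradation genes the ubiquitin-conjugating enzyme Ube2j1 (0.28, adjusted p = 0.0235), and of 28 genes of transport to the Golgi the coat protein Sec24a (0.24, adjusted p = 0.0222). At an unadjusted p below 0.05 were 10 of the 19 Perk and Atf4 targets, against 14.8% of all genes in either direction. All of those 10 but Psat1 (slope -0.06) had positive slopes, and the median slope of the 19 was 0.15. The unadjusted counts were 9 for folding, 8 for transport to the Golgi, 4 for degradation and 4 for the sensors and transcription factors. None of the 14 genes of the translocon and signal recognition passed (5 at an unadjusted p below 0.05; smallest p for Srpr, slope 0.13, adjusted p = 0.0857), and none of the 16 of N-glycosylation (also 5; smallest p for Ddost, 0.10, adjusted p = 0.251). Between the genotypes 0 of the 143 passed in edgeR (16 at an unadjusted p below 0.05), with a median log2 fold change of 0.25.

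Levels between genes are compared per kilobase of annotated exon. Averaged over the 8 pools, Igj was the highest of the 41 at 3935 CPM per kb. Pdia4 (294), Spcs2 (286), Hspa5 (264), Canx (244) and Hsp90b1 (234) followed, general chaperones and a signal peptidase subunit that every secreting cell needs. The lowest were Prdm1 (3.46 CPM per kb) and Ell2 (4.40). The 10 translocation genes varied 1.47-fold to 3.87-fold between the lowest and highest pool, the chaperones 1.75-fold to 40.2-fold, the degradation genes 4.38-fold to 54.1-fold, and the regulators and surface markers 4.29-fold to 585-fold.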

How the data were processed

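The deposited table holds raw counts, which the authors gave as whole numbers for each Ensembl gene in 4 H2afy_KO and 4 H2afy_WT pools. Per the labels' protocols, single reads of 50 bases came from cDNA of a kit for small inputs that leaves strand unmarked. HISAT2 2.0.6 and mm9 were used for alignment, per the submitters' processing notes. No source used here names the counter, its annotation or its strand setting, so reads of near-identical copies, and reads in exon bases that genes share on opposite strands, cannot be told apart. This touches Spcs1, which shares 276 exon bases with Glt8d1, Hsp90b1 (415 with 1810014B01Rik), Txndc5 (236 with Bmp6), Manf (146 with Vprbp) and Ddit3.

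GENCODE M1 (NCBIM37, the assembly of mm9) gave names to 37205 of 37991 IDs and none to 786. Immunoglobulin genes were the 257 genes of the heavy, kappa and lambda loci. Pool totals ran between 21330088 and 29029765 counts. Over the 28 pairs of pools, chi-square per degree of freedom was at least 101.1, so none was deposited again under another name.

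Genes were tested with edgeR 4.0.16 (quasi-likelihood, robust, TMM, filterByExpr with a minimum count of 10), and p-values were adjusted by Benjamini-Hochberg over the 13722 genes tested, with a threshold of 0.05. Variation between pools (biological coefficient) came to 0.390. The 3 models were genotype alone, genotype with the log2 immunoglobulin share, and their interaction. P-values measure the spread between pools. The scripts were tested on simulated data. Alternatives were DESeq2 (1.42.0), limma-voom (3.58.1), 1 surrogate variable (sva 3.50.0), other scaling factors and filters, other forms of the share, a replicate block, and pools left out. R was 4.3.3.

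The members, the lists and the tests were chosen with earlier results of these data known. Values per pool are given for the core regulators, for the 8 members with the smallest and the 4 with the largest p of the slope, and for the 4 with the smallest p between genotypes. Other pathway genes are named where they passed, up to 3 per list, or else the 1 with the smallest p. Sec61a1, Canx, Atf6, Ern1, Eif2ak3 and the marker genes were named outside this rule. The result of 1 marker gene is not reported here.

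The labels number replicates alike in both groups. The deviations of same-numbered pools from their group means had correlations of 0.190, 0.188, 0.355 and 0.407 across genes, all over 0.1. The numbers were therefore read as a possible pairing, and the replicate block was fitted as an alternative, in which 3 of the 41 genes rose with the share. The main models hold no replicate term. Such a pairing comes from the data alone, and these correlations do not establish it. H2afy_KO 1 was closer to H2afy_WT 2 (0.524), and H2afy_KO 3 to H2afy_WT 4 (0.454), than to the pool of their own number.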

Additional observations from a re-analysis of the deposited data

How the results depend on the processing

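The count of 18 genes that rose with the share was 18 under RLE and upper-quartile factors, with no filter and with 5 CPM in 4 pools, 19 without immunoglobulin genes or with constant-region genes alone, 17 without the genotype term, 24 on the linear share (where Igj and Eaf2 did not pass), 25 with limma-voom and 27 with DESeq2. Of all 13722 genes, 254 rose in the main fit, 263 with RLE and 253 with upper-quartile factors. The number was 281 with constant-region genes alone, 297 without the genotype term, 343 on the linear share, 412 with limma-voom and 846 with DESeq2. It was 362 of 28010 with no filter, 145 of 9583 with 5 CPM in 4 pools and 276 of 13585 without immunoglobulin genes. The member count was 3 with the replicate block (41 of all genes), 8 without both H2afy_KO 3 and 4 (64), 8 in H2afy_KO alone (88) and 8 in H2afy_WT alone (54). With each pool left out it was 6 to 21, 6 being without H2afy_KO 1 (90 of all genes) and 15 to 21 without any other single pool (171 to 367). These fits use fewer pools or degrees of freedom than the main one, and the cause of the different counts was not tested. The genotype count was 0 except for 1 under DESeq2, and the slope difference gave 0 in every setting. The median slope difference of the members ran between 0.003 without H2afy_KO 3 and 0.32 without H2afy_KO 1.

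Signs changed as follows, with no such value past the threshold. Without both H2afy_KO 3 and 4, 15 of the 41 log2 fold changes were positive, against 40 with all pools. Of the 14 members followed in each setting, they were -0.51 for Atf4, -0.0887 for Ddit3, -0.37 for Derl3, -0.72 for Igj, -1.09 for Irf4, -0.89 for Prdm1, -1.66 for Tnfrsf17 and -0.0289 for Xbp1, and of the others Ell2, at -1.07, was the lowest. With the share as a covariate they were -0.0498 for Atf4, -0.62 for Igj and -0.18 for Tnfrsf17. With a surrogate variable (33 of 41 positive) they were, among those 14, -0.14 for Atf4, -0.47 for Igj, -0.24 for Irf4, -0.26 for Prdm1 and -0.63 for Tnfrsf17. With the block Atf4 was at -0.0196, and with each pool left out at -0.14 to 0.23. Slopes without both H2afy_KO 3 and 4 were -0.0313 for Atf4, -0.00337 for Pdia3, 0.0494 for Ssr1 and -0.00995 for Ssr2. With the block they were -0.0211 for Ddit3, 0.00203 for Ssr1, -0.0417 for Ssr2 and -0.0193 for Ssr3, and in H2afy_KO alone -0.00403 for Ssr2. With each pool left out they were -0.00906 to 0.0957 for Pdia3, -0.0958 to 0.00615 for Ssr1 and -0.00401 to 0.0925 for Ssr2. The cause was not tested. The block changed no call between the genotypes.

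With 4 pools a group and shares that differ most within H2afy_KO, H2afy_KO 1 holds the lowest share. Members below 2 CPM in that pool (Tnfrsf17, Eaf2, Fkbp11, Prdm1 and Ell2) rest on few counts there.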
